A study of Homo sapiens with 8 samples.

Results

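The genes described here encode extracellular matrix glycoproteins and collagens, chosen by name: FN1, TNC, THBS1, SPARC, TGFBI, COL1A1, COL4A1, COL4A2, COL5A1 and LOX. All 10 were found among the 34415 gene symbols of the count table. They were measured by RNA sequencing in HaCaT, an immortalized line that grew out spontaneously from adult human skin keratinocytes. Each group had 4 cultures. The siETV4 libraries came from cells transfected for 48 h with small interfering RNA (siRNA) against the transcription factor gene ETV4, and the siNC libraries from cells given a negative-control siRNA for the same time. Cells of both groups had spent 96 h at 35 mM glucose, where the basal level was 5.5 mM, in RPMI-1640 with fetal bovine serum. They were between passages 21 and 33, and every value below is from high glucose in 1 cell line.

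Keratinocytes secrete the matrix they crawl on. Fibronectin and tenascin-C are found in the matrix of a healing wound, and collagen IV is the network-forming collagen of the basement membrane. Thrombospondin-1, SPARC and TGFBI are secreted glycoproteins that bind matrix, integrins or both. Fibrillar collagens I and V are mostly fibroblast products in skin, and lysyl oxidase, encoded by LOX, crosslinks collagen and elastin. ETV4 belongs to the PEA3 group of ETS factors, which have been studied in cell migration and invasion.

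Most collagen IV is a trimer of alpha1 chains, from COL4A1, and alpha2 chains, from COL4A2, and the genes lie head to head on chromosome 13. The stretch between their RefSeq starts is printed because transcripts of both chains, whose ratio is tested below, begin at its ends. It covers 126 bases of GRCh38.p14, chr13:110307158-110307283, and is given 5′ to 3′ on the plus strand, so that COL4A1 starts to its left on the minus strand and COL4A2 to its right on the plus strand. Capitals mark the CCAAT box and the GC box GGGCGG, each found once when both strands were searched.
COL4A1-COL4A2: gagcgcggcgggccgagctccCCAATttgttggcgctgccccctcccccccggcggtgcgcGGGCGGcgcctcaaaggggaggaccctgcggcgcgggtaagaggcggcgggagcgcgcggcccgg
The stretch was 80.2% G and C. The ETS-type motifs CCGGAA and AGGAAG and the AP-1 motif TGAGTCA had 0 matches on either strand of these 126 bases, which says only that those letters are not in this window. Among 35116 RefSeq promoter windows, the 126 bases before the start held CCAAT in 21.1%, GGGCGG in 34.6%, CCGGAA in 10.1%, AGGAAG in 16.2% and TGAGTCA in 2.46%. In the 300-base RefSeq promoter windows of the members, AGGAAG was found once each for TNC, THBS1, TGFBI, COL5A1 and LOX (for LOX in 2 of its 3 windows). It was in none for FN1, SPARC, COL4A1 and COL4A2, while 33.6% of all such windows hold it. CCGGAA was found among these windows only for SPARC, while 17.2% of all such windows hold it.

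Libraries held 35057643 to 41657753 counts. ETV4 stood at 3.10, 2.71, 1.83 and 2.80 CPM, the count scaled to the library's depth, in siETV4 replicates 1 to 4, against 32.0, 29.7, 31.1 and 19.8 CPM in siNC replicates 1 to 4. Its level fell by 3.43 on the log2 scale (SE 0.21, edgeR adjusted p 4.64e-05). Across all 13572 genes tested, 32 passed an adjusted p of 0.05, which is 0.236%, with 16 higher and 16 lower in siETV4 (16 and 10 when libraries were scaled by total count alone). siNC replicate 4 stood apart: its deviations from the mean of all libraries ran against transcript GC content (rank correlation over genes, Spearman's rho, -0.58), where the other siNC libraries ran with it (0.52 to 0.62) and the siETV4 libraries lay between -0.63 and 0.20. Results are therefore also given with each library's trend with GC content and transcript length removed, and without siNC replicate 4 where that moves them. Without that library, every siNC library ran with GC content more strongly than any siETV4 library. In that fit the siRNA and the GC content trend therefore cannot be told apart. The 9 keratinocyte markers summed to 3596 to 4071 CPM in siETV4 and 3632 to 4181 CPM in siNC. In the fit of all 8 libraries 0 of the 9 passed the threshold. Their log2 fold changes were positive in 4 and negative in 5, from -0.30 for PKP1 to 0.52 for DSG3. Without siNC replicate 4, DSG3 and ITGA6 were higher and PKP1 lower past the threshold, beside 12% of all genes higher and 4.88% lower. With the trends removed, 0 of the 9 passed in all 8 libraries. DSG3 alone passed with siNC replicate 4 also left out, where 919 of 13095 genes passed.

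The members differed widely in level. The deposited values per transcript length (FPKM, fragments scaled to gene length and library total) put TGFBI first, at 604 ± 39.3 FPKM in siETV4 and 639 ± 28.4 FPKM in siNC (SD, n = 4 each), which was rank 115 by mean FPKM among the 34415 symbols. THBS1 followed at 182 ± 35.3 FPKM in siETV4 and 153 ± 17.4 FPKM in siNC, rank 373. COL4A2 came next with 53.7 ± 6.59 FPKM in siETV4 and 55.2 ± 4.57 FPKM in siNC, then FN1 with 23.4 ± 7.66 FPKM in siETV4 and 27.6 ± 5.61 FPKM in siNC. At each of these steps, and between FN1 and the next gene, the ranges over the 8 libraries did not overlap.

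TNC averaged 12.0 ± 2.49 FPKM in siETV4 and 10.8 ± 1.57 FPKM in siNC, and COL4A1 11.3 ± 1.37 FPKM in siETV4 and 10.3 ± 0.21 FPKM in siNC, so these neighbours were not separated beyond their spread. COL1A1, the alpha1 chain of collagen I, was far lower at 0.593 ± 0.087 FPKM in siETV4 and 0.704 ± 0.215 FPKM in siNC. LOX and COL5A1 stayed under 0.2 FPKM in every library and overlapped each other, and SPARC was at the limit of detection. The place of COL4A1 depends on the gene length behind the FPKM values, which was 15595 bases for COL4A1 although its longest GENCODE transcript has 6616. Scaled instead by the longest GENCODE transcript, in CPM per kilobase, COL4A1 had 26.1 (siETV4) and 24.7 (siNC), between COL4A2 with 52.5 (siETV4) and 55.6 (siNC) and TNC with 14.3 (siETV4) and 13.3 (siNC), and next to FN1 with 21.6 (siETV4) and 26.1 (siNC).

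**Figure D1:**
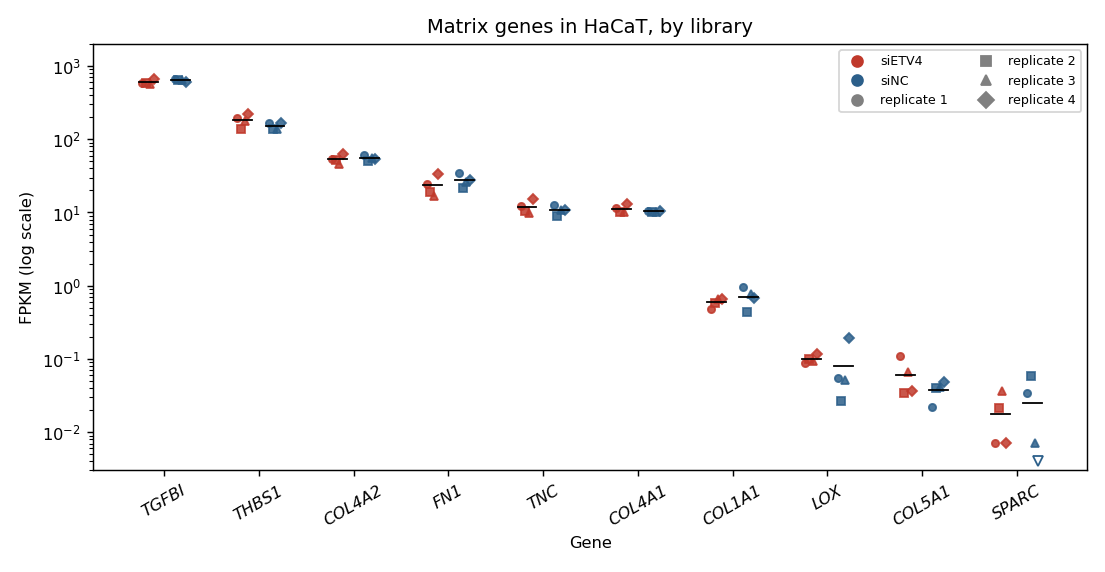
FPKM of the 10 matrix genes on a log axis, with siETV4 in red left of siNC in blue, 1 marker per library and a black line at each group's mean. The open triangle marks the library in which SPARC had 0 counts, drawn at the foot of the axis. TGFBI averaged 604 FPKM in siETV4 and 639 FPKM in siNC, while LOX, COL5A1 and SPARC lay under 0.2 FPKM.

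Of the 10 matrix genes, 9 passed the filter on low counts and were tested, and SPARC was not. None of the 9 passed the threshold, against a background of 0.236% of all genes tested, and 0 of the 9 had groups that did not overlap, against 6.55% of all genes tested. At an unadjusted p under 0.05 the count was also 0 of 9 by edgeR, beside 12.6% of all genes tested. It was 0 of 9 by limma-voom and 0 of 10 by DESeq2, for which the share over all genes was not computed. With GC content and length trends removed the edgeR count was 2 of 9, COL4A1 and TNC, beside 15.9% of all genes in that fit. There 0 of 9 passed the adjusted threshold, beside 1.6%. The log2 fold changes of siETV4 over siNC were positive in 5 and negative in 4, with a median of 0.08, beside -0.01 over all genes tested. A p above the threshold does not show equal levels, so the 95% interval of each fold change is given below. In bulk RNA, fewer cells that express a gene and less RNA per cell cannot be told apart. Together the 10 genes took 0.341 to 0.456% of the counts in siETV4 libraries and 0.355 to 0.410% in siNC libraries, and TGFBI, THBS1, COL4A2 and FN1 made up 92.3 to 93.1% of that in all 8 libraries.

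Fibronectin, the adhesive glycoprotein that integrin alpha5beta1 binds, is encoded by FN1 on chromosome 2 (215360865 to 215436068, GRCh38.p14). FN1 stood at 206, 164, 136 and 285 CPM in siETV4 replicates 1 to 4, against 304, 191, 231 and 233 CPM in siNC replicates 1 to 4. The siETV4 libraries held both the lowest values and the second highest, and the groups overlapped. Its log2 fold change was -0.28 (SE 0.21, edgeR adjusted p 0.582), with a 95% interval of 0.601-fold to 1.13-fold. With GC content and length trends removed it was -0.46 (SE 0.22, edgeR adjusted p 0.330), and -0.61 (edgeR adjusted p 0.0611) when siNC replicate 4 was left out as well. Omitting single libraries gave values from -0.51 without siETV4 replicate 4 (edgeR adjusted p 0.288) to -0.14 without siETV4 replicate 3 and -0.14 without siNC replicate 1. FN1 shares part of its span with ATIC on the opposite strand. Whether reads were assigned by strand is not stated in the labels, so reads of overlapping opposite-strand genes cannot be told apart.

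Tenascin-C is a hexameric glycoprotein of wound edges and tumour stroma, encoded by TNC on chromosome 9 (115019575 to 115118157). TNC had 110, 99.2, 86.7 and 140 CPM in siETV4 replicates 1 to 4, against 119, 85.4, 104 and 97.9 CPM in siNC replicates 1 to 4. siETV4 replicate 4 was the highest of all 8 libraries and the rest were mixed. In the edgeR fit the log2 fold change was 0.10 (SE 0.15, edgeR adjusted p 0.781; 95% interval 0.855-fold to 1.35-fold). It was -0.05 without siETV4 replicate 4 and 0.24 (SE 0.10, edgeR adjusted p 0.259) with the trends removed.

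Among the matricellular proteins, THBS1 encodes thrombospondin-1, which can activate latent TGF-beta and binds CD47 (chromosome 15, 39581079 to 39599466). Its levels were 1487, 1080, 1315 and 1689 CPM in siETV4 replicates 1 to 4, against 1326, 1110, 1112 and 1278 CPM in siNC replicates 1 to 4. siETV4 held both the highest and the lowest library. siETV4 over siNC gave a log2 fold change of 0.21 (SE 0.13, edgeR adjusted p 0.516; 95% interval 0.946-fold to 1.41-fold), and 0.12 (SE 0.09) with the trends removed. It ranged from 0.10 without siETV4 replicate 4 to 0.31 without siETV4 replicate 2 (edgeR adjusted p 0.354).

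TGFBI, named for its induction by TGF-beta, encodes a secreted protein that binds collagens and integrins (chromosome 5, 136028988 to 136063818). Values were 1589, 1611, 1497 and 1765 CPM in siETV4 replicates 1 to 4, against 1841, 1802, 1815 and 1591 CPM in siNC replicates 1 to 4. Every siETV4 library was below siNC replicates 1 to 3, and siNC replicate 4 lay within the siETV4 range. On the log2 scale the change was -0.13 (SE 0.09, edgeR adjusted p 0.550), with a 95% interval of -0.32 to 0.07, or 0.803-fold to 1.05-fold, the narrowest of the 9 genes. Without siNC replicate 4 it was -0.17 (SE 0.08, edgeR adjusted p 0.153), and with the trends removed -0.07 (SE 0.05, edgeR adjusted p 0.553).

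SPARC, which encodes a calcium-binding glycoprotein also called osteonectin (chromosome 5, 151661096 to 151686915), had 1, 3, 5 and 1 counts in siETV4 replicates 1 to 4 and 5, 7, 1 and 0 counts in siNC replicates 1 to 4. These are near the limit of 3 counts that a count of 0 allows, so no fold change is given and a difference was not detectable at this depth.

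**Figure D2:**
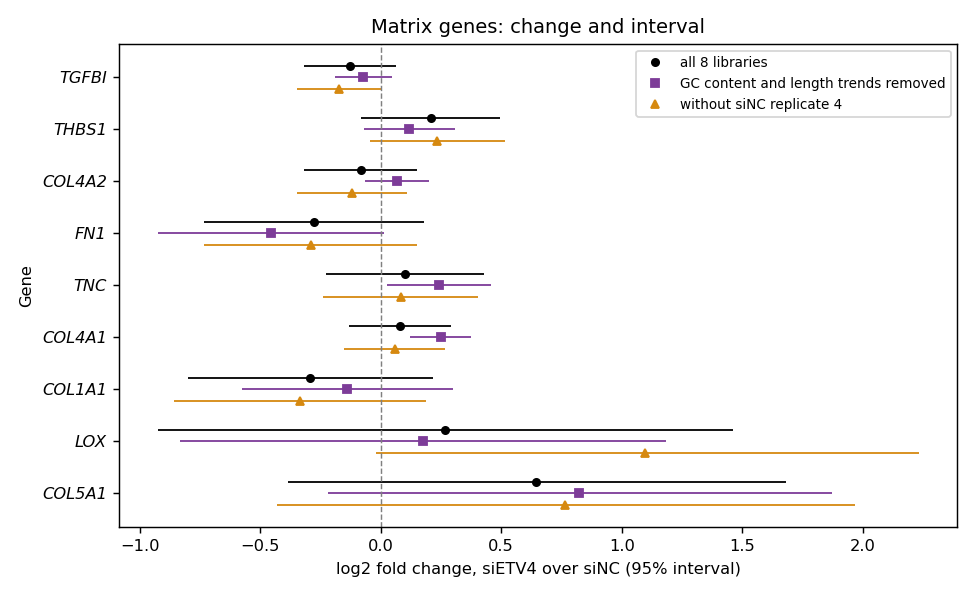
Log2 fold change of siETV4 over siNC for the 9 tested matrix genes, with 95% intervals from edgeR, in the fit of all 8 libraries (black), with GC content and length trends removed (purple) and without siNC replicate 4 (orange). Black intervals all include 0. The purple intervals of COL4A1 (0.12 to 0.38) and TNC (0.03 to 0.46) do not, although neither gene passed the adjusted threshold.

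Of the collagen IV chains, COL4A1 (chromosome 13, 110148963 to 110307157) had 176, 161, 153 and 201 CPM in siETV4 replicates 1 to 4, against 168, 165, 165 and 157 CPM in siNC replicates 1 to 4. The siNC libraries lay close together, inside the wider siETV4 range. Its log2 fold change was 0.08 (SE 0.10, edgeR adjusted p 0.734; 95% interval 0.912-fold to 1.22-fold), and -0.00285 without siETV4 replicate 4. With the trends removed, COL4A1 stood at 179, 182, 181 and 191 CPM in siETV4 replicates 1 to 4, against 151, 167, 150 and 148 CPM in siNC replicates 1 to 4. The groups then did not overlap, but the share of all genes without overlap was not computed for trend-removed values. The log2 fold change was 0.25 (SE 0.06) with an edgeR adjusted p of 0.0560, just outside the threshold, which 1.6% of all genes passed in that fit. Leaving out siNC replicate 4 as well gave an edgeR adjusted p of 0.0639. The length trend used the length behind the FPKM, 15595 bases for COL4A1, here and in the ratio below. Values using the 6616 bases of its longest GENCODE transcript were not computed.

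COL4A2 (chromosome 13, 110307284 to 110513209) had 344, 339, 286 and 394 CPM in siETV4 replicates 1 to 4, against 404, 343, 364 and 334 CPM in siNC replicates 1 to 4. The groups overlapped, and the lowest library was siETV4 replicate 3. In the edgeR fit the log2 fold change was -0.08 (SE 0.11, edgeR adjusted p 0.748; 95% interval 0.802-fold to 1.11-fold), and with the trends removed its sign turned, at 0.07 (SE 0.06, edgeR adjusted p 0.643). Omitting single libraries gave -0.16 without siETV4 replicate 4 to -0.00801 without siETV4 replicate 3.

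Because the chains share a trimer and a start region, their ratio was compared within each library, where no scaling between libraries enters. The ratio of COL4A1 to COL4A2 counts was 0.512, 0.475, 0.535 and 0.510 in siETV4 replicates 1 to 4, against 0.417, 0.480, 0.452 and 0.470 in siNC replicates 1 to 4. The ratio was higher in siETV4 except that siETV4 replicate 2 was just below siNC replicate 2. The mean log2 ratio was -0.98 ± 0.07 in siETV4 and -1.14 ± 0.09 in siNC (SD, n = 4 each), a difference of 0.16 with p = 0.0571 by a two-sided exact permutation test, in which 4 against 4 libraries allow no p below 0.0286. Transcripts of the chains differ in GC content, 55.4% for COL4A1 and 62.0% for COL4A2 in the longest GENCODE transcript. With GC content and length trends removed, an alternative chosen after the data had been seen, the difference was 0.19 (two-sided exact permutation p = 0.0857). Without siETV4 replicate 2 the difference in the counts as deposited was also 0.19, with an exact permutation p of 0.0286, the smallest that 35 arrangements allow. Without any other single library the difference was 0.12 to 0.19, with exact permutation p between 0.0571 and 0.114.

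**Figure D3:**
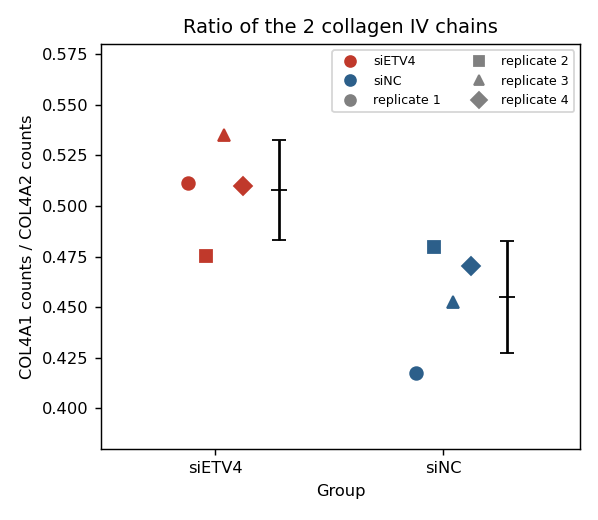
Ratio of COL4A1 to COL4A2 counts in each library, with siETV4 (red) left of siNC (blue), markers for replicates, and bars for the mean ± SD of 4 libraries. The axis does not start at 0. siETV4 libraries ran from 0.475 to 0.535 and siNC libraries from 0.417 to 0.480.

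The fibrillar collagen chains were scarce. COL1A1 (chromosome 17, 50184101 to 50201631) had 2.79, 3.47, 3.73 and 3.89 CPM in siETV4 replicates 1 to 4, against 5.73, 2.68, 4.66 and 3.90 CPM in siNC replicates 1 to 4. siNC replicate 2 was the lowest of all libraries and siNC replicate 1 the highest. siETV4 over siNC gave a log2 fold change of -0.29 (SE 0.23, edgeR adjusted p 0.603; 95% interval 0.574-fold to 1.16-fold), and it ranged from -0.46 without siNC replicate 2 to -0.11 without siNC replicate 1. With the trends removed it was -0.14 (SE 0.20, edgeR adjusted p 0.795). COL1A2, the partner chain of COL1A1 in the usual collagen I trimer, had 0 counts in all 8 libraries, which allows up to 3 counts in each (it was singled out after its values were seen).

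COL5A1, a chain of the collagen V that nucleates collagen I fibrils (chromosome 9, 134641803 to 134844843), had 48, 15, 28 and 16 counts in siETV4 replicates 1 to 4, against 10, 15, 18 and 21 counts in siNC replicates 1 to 4. siETV4 replicate 1 was the highest library, and without it the log2 fold change of 0.64 (SE 0.47, edgeR adjusted p 0.567; 95% interval 0.766-fold to 3.21-fold) was 0.21. With the trends removed the log2 fold change of COL5A1 was 0.82 (SE 0.48, edgeR adjusted p 0.434). LOX (chromosome 5, 122063195 to 122078259) had 19, 22, 20 and 25 counts in siETV4 replicates 1 to 4, against 12, 5, 11 and 41 counts in siNC replicates 1 to 4. The siETV4 libraries lay above siNC replicates 1 to 3 and below siNC replicate 4. The log2 fold change of LOX was 0.27 (SE 0.54, edgeR adjusted p 0.842; 95% interval 0.527-fold to 2.75-fold), 1.10 without siNC replicate 4 (edgeR adjusted p 0.149) and -0.00266 without siNC replicate 2. With the trends removed it was 0.17 (SE 0.46, edgeR adjusted p 0.899). SRFBP1, which overlaps LOX on the opposite strand, had 541, 369, 554 and 463 counts in siETV4 replicates 1 to 4, against 337, 250, 273 and 597 counts in siNC replicates 1 to 4, so its highest library was also siNC replicate 4. Whether reads of SRFBP1 were counted under LOX was not tested.

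The 6 abundant members, TGFBI, THBS1, COL4A2, FN1, COL4A1 and TNC, varied between libraries of the same group in a shared order. siETV4 replicate 4 was the highest siETV4 library in 6 of the 6, and siNC replicate 1 the highest siNC library in 6 of the 6. Over all genes tested both held in 9.97%. siETV4 replicate 3 was the lowest siETV4 library in 5 of the 6, beside 25.5% of all genes tested. The exception was THBS1, whose lowest was siETV4 replicate 2. In siNC the lowest library was replicate 2 for THBS1, FN1 and TNC (22.8% of all genes tested) and replicate 4 for TGFBI, COL4A2 and COL4A1 (37.9%). FN1 varied most, with a coefficient of variation of 32.7% in siETV4 and 19.6% in siNC, and TGFBI least in siETV4 at 6.88%, beside 6.54% in siNC. With GC content and length trends removed, siETV4 replicate 4 was again the highest siETV4 library for each of the 6, and siNC replicate 1 the highest siNC library for all but COL4A1. The share of all genes in that order was not computed for trend-removed values. The labels give no date or batch for these cultures, and the source of this shared order was not tested.

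**Figure D4:**
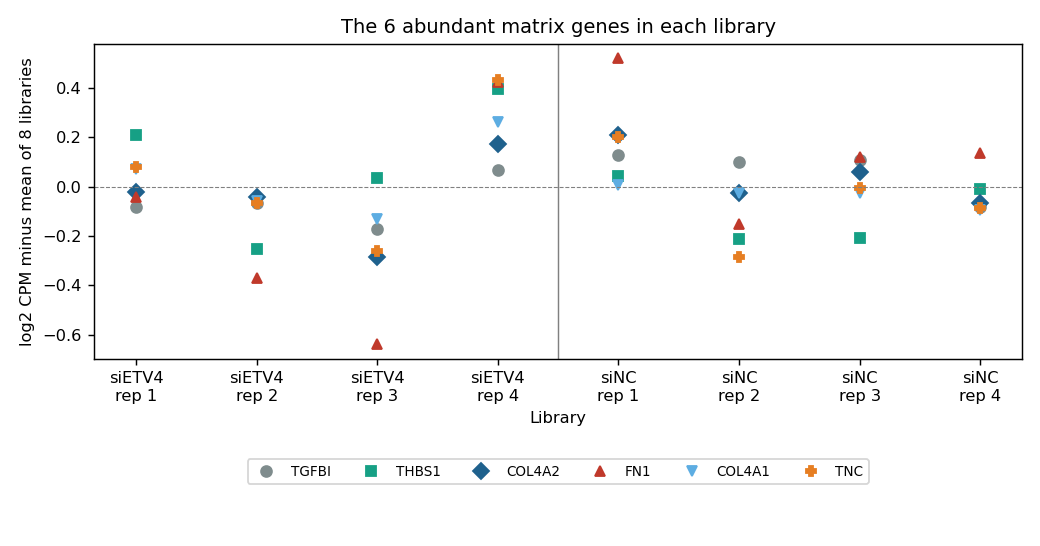
Log2 CPM of the 6 abundant matrix genes in each library, minus the gene's mean over the 8 libraries, siETV4 libraries left and siNC libraries right of the line. All 6 genes are above 0 in siETV4 replicate 4 and in siNC replicate 1, and 5 of 6 are below 0 in siETV4 replicate 3.

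The genes with the most similar profiles over the 8 libraries were PELP1 and MEN1 for TGFBI (Pearson's r of log2 CPM 0.99 each), FAF2 and UVSSA for THBS1 (0.97 each), and PLBD2 and ND1 for COL4A2 (0.99 and 0.98). These are descriptions over 13571 genes compared with each member, and the libraries' GC content trends enter every profile.

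Beyond the members, 6 lists of matrix and collagen-assembly genes had 0 genes past the threshold, among 75 tested by edgeR and by limma-voom and 110 by DESeq2. Over all genes, 32 of 13572 passed by edgeR (0.236%), 42 of 13572 by limma-voom and 167 of 20577 by DESeq2. The share of 0.236% is also the background of the edgeR counts list by list below. At an unadjusted p under 0.05 edgeR gave 7 of the 75, which is 9.33%, beside 12.6% of all genes tested. Without siNC replicate 4, where 2327 genes passed in all (16.9%), P4HA1, MATN2 and DCN were higher past the threshold. So were 5 receptor genes, and 1 receptor gene was lower, as described below. With the trends removed in all 8 libraries, TINAGL1 was higher past the threshold.

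Other collagens gave 0 of 16 tested genes past the threshold and a median log2 fold change of -0.06. COL17A1, the hemidesmosomal collagen, averaged 702 ± 89.2 CPM in siETV4 and 807 ± 63.0 CPM in siNC, a log2 fold change of -0.20 (SE 0.10), and COL4A5, a further collagen IV chain, 79.6 ± 12.2 CPM in siETV4 and 75.9 ± 4.50 CPM in siNC, a log2 fold change of 0.07 (edgeR adjusted p 0.811). Enzymes that fold and modify collagen gave 0 of 14, with a median of 0.00. Among them P4HB, the beta subunit of prolyl 4-hydroxylase, averaged 837 ± 44.1 CPM in siETV4 and 879 ± 71.0 CPM in siNC, and PPIB, a prolyl isomerase, 444 ± 43.2 CPM in siETV4 and 442 ± 67.8 CPM in siNC.

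Crosslinking and procollagen processing genes gave 0 of 7, with a median of -0.16. LOXL2, a relative of lysyl oxidase, averaged 139 ± 10.5 CPM in siETV4 and 157 ± 11.2 CPM in siNC, a log2 fold change of -0.18 (SE 0.09; edgeR adjusted p 0.432). It was -0.23 without siNC replicate 4 (edgeR adjusted p 0.0743) and -0.05 with the trends removed (edgeR adjusted p 0.681). BMP1, the procollagen C-proteinase, averaged 84.0 ± 6.46 CPM in siETV4 and 85.2 ± 4.27 CPM in siNC. Other matrix glycoproteins gave 0 of 20 with a median of 0.01, and the most abundant by FPKM were TINAGL1 (598 ± 42.8 CPM in siETV4 and 551 ± 61.0 CPM in siNC) and the fibulin gene EFEMP1 (448 ± 24.7 CPM in siETV4 and 424 ± 42.4 CPM in siNC). Proteoglycans gave 0 of 6 with a median of -0.10, and their most abundant members, SDC4 and GPC1, had log2 fold changes of -0.05 and -0.10.

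Matrix receptors gave 0 of 12 with a median of 0.07. The collagen receptor DDR1 and the hyaluronan receptor CD44 had log2 fold changes of 0.06 and 0.01. The receptor gene for fibronectin, ITGA5, singled out after its values were seen, stood at 23.1, 24.5, 24.7 and 28.6 CPM in siETV4 replicates 1 to 4, against 36.3, 33.7, 35.3 and 29.3 CPM in siNC replicates 1 to 4. The groups did not overlap, as in 6.55% of all genes tested, and the log2 fold change of -0.42 (SE 0.12) did not pass (edgeR adjusted p 0.235). ITGA5 passed without siNC replicate 4 (edgeR adjusted p 0.0171). In that fit 5 of the 12 receptor genes were higher past the threshold, CD47, ITGA2, ITGAV, ITGB1 and ITGB6. ITGA5 was the 1 lower, beside 12% of all genes higher and 4.88% lower. With the trends removed in all 8 libraries ITGA5 did not pass (edgeR adjusted p 0.0826). It passed with the trends removed and siNC replicate 4 left out (edgeR adjusted p 0.0318), where 919 of 13095 genes passed. ITGB6 passed in the opposite direction in that fit (log2 fold change 0.55, edgeR adjusted p 0.00912).

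Markers of fibroblasts, the main source of collagens I and V in skin, were near 0. Their 8 genes summed to 0.985 to 1.64 CPM in siETV4 and 0.277 to 0.773 CPM in siNC, and COL1A2 and LUM had 0 counts in all libraries. Of the 8, COL3A1 and DCN were the only ones to pass the filter on low counts. DCN, the decorin gene, singled out after its values were seen, had 39, 14, 31 and 25 counts in siETV4 replicates 1 to 4, against 8, 8, 5 and 1 counts in siNC replicates 1 to 4. The DCN groups did not overlap, as in 6.55% of all genes tested, and DCN did not pass (log2 fold change 2.17, SE 0.58, edgeR adjusted p 0.203). Endothelial markers, of interest because vessels also make collagen IV, summed to 15.2 to 21.9 CPM in siETV4 and 13.95 to 18.35 CPM in siNC. Almost all of that was CDH5, which averaged 18.5 ± 2.65 CPM (SD, n = 4) in siETV4 libraries and 14.8 ± 1.77 CPM (SD, n = 4) in siNC libraries, while KDR was at 0. Melanocyte markers summed to 1.15 to 2.02 CPM in siETV4 and 1.31 to 2.29 CPM in siNC, nearly all PMEL, with MLANA and TYR at 0. Leukocyte markers summed to 21.8 to 24.1 CPM in siETV4 and 16.2 to 23.6 CPM in siNC, nearly all CD68, with PTPRC at 0. The part of these cells or transcripts in the values above was not tested.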

How the data were processed

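Total RNA of 8 HaCaT cultures was sequenced, and groups and replicate numbers come from the sample titles. The authors deposited raw counts per gene symbol and FPKM values, each with 8 library columns. The submitters' processing notes name hg38 and R 3.2.0, while aligner, counter, annotation and strandedness are not given in the labels. Each deposited FPKM equals the count over the library total and 1 gene length, for all 20585 genes above 0 (relative tolerance 1e-04), so it carries no scaling between libraries.

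Counts were tested in R 4.3.3 with edgeR 4.0.16: filterByExpr (minimum count 10) kept 13572 genes, libraries were scaled by TMM, and the quasi-likelihood test had siRNA as its only term. P-values were adjusted by Benjamini-Hochberg over all genes tested and called under 0.05. Standard errors and 95% intervals come from that fit. Log2 fold changes are siETV4 over siNC. CPM uses TMM-scaled library sizes. At the mean depth, 1 CPM is 40.1 counts. Trends with GC content (longest GENCODE v29 transcript, found for 95.6% of tested genes) and length (behind the FPKM) were fitted per library by splines with 5 degrees of freedom and removed as offsets. DESeq2 1.42.0 and limma 3.58.1 were alternatives. Scripts were tested on simulated counts.

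The members, gene lists, tests and alternatives were chosen with earlier results of these data known. Named genes are the 10 members, ETV4, from each list its genes past the threshold (at most 4) or its 2 most abundant by mean FPKM, and the 2 genes closest in profile to each of the 3 most abundant members. A further list is not reported here. Positions and promoter sequence are from RefSeq on GRCh38.p14, the assembly of hg38. COL1A1 is not in the promoter table used. Per the labels' protocols the replicates were biologically independent.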

Additional observations from a re-analysis of the deposited data

Results flagged for a closer look

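In siNC replicate 4, 3 values lay far from the other siNC libraries by Dixon's ratio of gap to range at its 95% critical value for 4 samples. LOX stood there at 0.993 CPM, where the next siNC library was at 0.293 CPM. TGFBI stood at 1591 CPM, where the next was at 1802 CPM, and LOXL2 at 141 CPM, where the next was at 161 CPM. By chance about 1 in 20 groups would stand out this way, and 50 groups were examined. All 3 are in the library whose deviations ran against GC content (rho -0.58). With GC content and length trends removed, TGFBI stood there at 1716 CPM, where the other siNC libraries ran from 1658 to 1848 CPM. LOX stood there at 0.763 CPM with the trends removed, where the next siNC library was at 0.353 CPM. Dixon's ratio was not computed for trend-removed values, and the part of the trend in the 3 values was not tested.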

How the results depend on the processing

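The count of matrix members past the threshold was 0 in the edgeR fit of all 8 libraries and in each of the 21 alternatives. The lowest adjusted p of any member was 0.0560, for COL4A1 with GC content and length trends removed. The count over all genes moved more: it was 32 in that fit, 54 without a filter, 167 by DESeq2, 207 with the trends removed, 919 with the trends removed and siNC replicate 4 left out, and 59 by limma on log2 FPKM with a pseudocount of 1 or 0.1. Leaving out 1 library at a time gave 9 to 2327 genes: 10, 15, 9 and 16 without siETV4 replicates 1 to 4, and 13, 10, 13 and 2327 without siNC replicates 1 to 4. Same-numbered libraries did not deviate together (r -0.16 to 0.25), so the numbers were not taken to pair them. The replicate block gave 4 genes, or 101 with the trends removed, and the COL4A1 to COL4A2 difference of 0.16 had a sign-flip exact permutation p of 0.25, where pairing allows none below 0.125. Omitting single libraries moved that difference between 0.12 and 0.19, and it passed without siETV4 replicate 2 (0.19, exact permutation p = 0.0286). The median member log2 fold change was -0.08 when genes needed 1 CPM in 4 libraries, which drops LOX and COL5A1. The sign of 4 uncalled members turned. For COL4A2 the log2 fold change became 0.067 with the trends removed, 0.064 with the block as well and 0.045 with siNC replicate 4 also left out. Leave-one-out values ran from -0.046 to 0.20 for TNC, from -0.00285 to 0.13 for COL4A1 and from -0.00266 to 1.10 for LOX. The cause of the other shifts was not tested. Depth limits SPARC, LOX and COL5A1, at 48 counts or fewer per library.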
